A study of Mus musculus with 6 samples.

Results

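A set of 123 annotated mouse transcripts was at or near 0 in untreated cells and present after exposure to either of 2 related plant compounds. The members were chosen by their FPKM values (fragments per kilobase per unit of mapped fragments, a level corrected for transcript length and library size). Each has a mouse Ensembl transcript ID, at most 0.1 FPKM in both control libraries and at least 1 FPKM in both triptonide and both triptolide libraries. They are 123 of 65189 annotated transcripts, or 0.189%, in a table of 65535. The values against control thus chose the members, and are given as a description with no test. The choice did not use the difference between the compounds as such, although the floor of 1 FPKM in each exposed library trims that difference. It did not use the place of each transcript in the table.

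RNA came from GC2 cells, a cultured mouse line that the labels call a spermatocyte cell line, with 2 libraries after triptonide, 2 after triptolide (spelled Tiptolide in the sample labels) and 2 from control cells. All cells were seeded at 100000 per well in 2 mL of medium and grown for 12 h. Triptolide was given at 0.1 µM for 24 h, per the labels' protocols, which give neither a dose nor a time for triptonide and name no vehicle for the controls. All comparisons of the compounds below are therefore between exposures that cannot be said to match. The libraries were strand-specific and made from RNA depleted of ribosomal RNA. Separate cultures are not stated for the 2 libraries of a group, and all p-values reflect just the spread between these libraries, which may be technical. No gene is listed beside a transcript in the table, and 0 of the IDs were found in the available name tables. Hence the members have no gene names or roles here, and the labelled cell type was not checked against markers.

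Triptolide is a diterpene epoxide of the thunder god vine. It binds XPB, the helicase subunit of the general transcription factor TFIIH that opens DNA at promoters, and thereby blocks initiation by RNA polymerase II. Triptonide differs from it by a ketone in place of a hydroxyl group. Such a block is best known for lowering short-lived RNAs. GC2 cells were derived from mouse spermatocytes by immortalization, a step that limits them as a model of germ cells in the testis.

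The switched-on transcripts were mostly of modest level. Their median was 2.47 and 2.91 FPKM in the triptonide libraries, 4.86 and 4.51 FPKM in the triptolide libraries, and 0 and 0.00266 FPKM in the control libraries. The highest member reached 49.6 and 40.0 FPKM after triptonide, against 81.7 and 122.0 FPKM for the highest after triptolide and 0.0932 and 0.0968 FPKM in control. Levels over 10 FPKM were seen for 10 and 13 members after triptonide and for 26 and 25 after triptolide. In the control libraries, 50 members were listed at 0 in both, 27 were above 0 in 1 library and 46 were above 0 in both. An exact 0 can be a failed estimate, so these 50 are only said to be listed at 0, and no fold change is given against it. In bulk RNA a higher level can come from more cells that carry a transcript or from more RNA per cell, and these cannot be told apart.

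**Figure D1:**
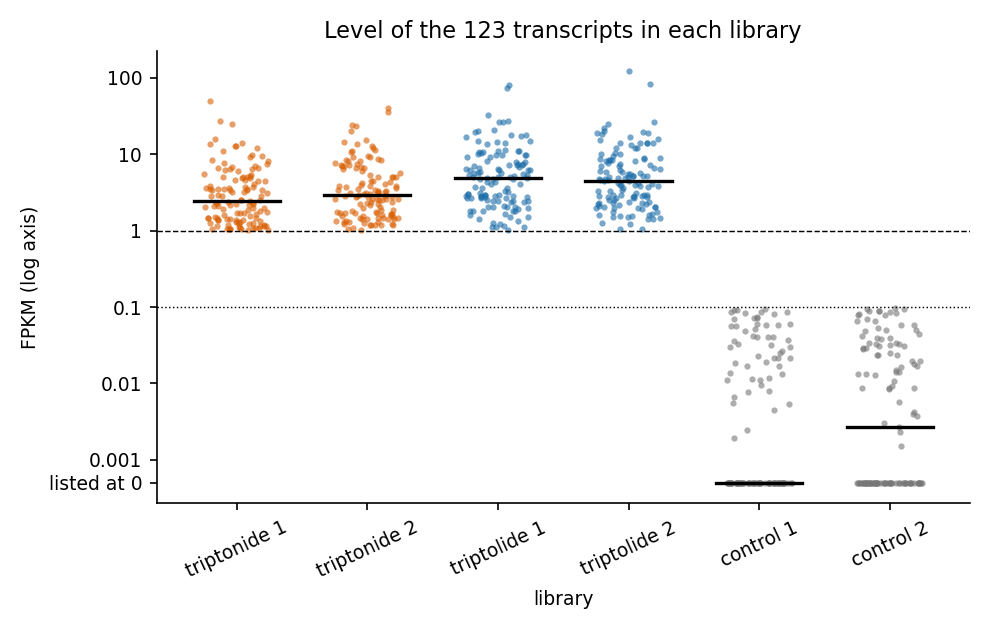
FPKM of the 123 transcripts (log axis, with values of 0 drawn on the line marked as listed at 0) in each library; points are transcripts and bars are medians. The dashed line at 1 FPKM and the dotted line at 0.1 FPKM are the limits of the choice, so the gap between exposed and control libraries is set by it. The medians were 2.47 and 2.91 FPKM after triptonide and 4.86 and 4.51 FPKM after triptolide, and the floor bears on each of these 4.

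Summed over the members, the FPKM came to 539.0 and 618.8 in the triptonide libraries, 957.7 and 967.4 in the triptolide libraries, and 2.13 and 2.35 in the control libraries. The sum over the whole table also differed, at 395459 and 376961 FPKM after triptonide, 588470 and 503572 FPKM after triptolide, and 372058 and 349558 FPKM in control. The members' sums were 0.136% and 0.164% of all FPKM in the table after triptonide, 0.163% and 0.192% after triptolide and 0.000572% and 0.000673% in control. As FPKM the sums of the 2 compounds did not overlap, whereas as shares of the table they did, with triptonide replicate 2 just above triptolide replicate 1. Absolute depth is unknown from FPKM. Steps among low values gave relative depths of 0.768 and 0.737 for the triptonide, 0.603 and 0.674 for the triptolide and 0.824 and 1.0 for the control libraries. The control libraries, where the members were lowest, were thus the deepest.

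The choice asked for both compounds at once. Of 33001 annotated transcripts at or under 0.1 FPKM in both control libraries, 177 reached 1 FPKM after triptonide and 287 after triptolide, in both libraries of the group. The 123 members are 69.5% of the triptonide list and 42.9% of the triptolide list. Both lists use the same control libraries. The limits cut through a continuum of values. The 3 members nearest the floor had lowest exposed values of 1.01, 1.01 and 1.03 FPKM, and the 3 transcripts nearest below it had 0.997, 0.986 and 0.984 FPKM. The 3 members nearest the ceiling had highest control values of 0.0968, 0.0950 and 0.0949 FPKM, and the 3 transcripts just above it had 0.104, 0.109 and 0.110 FPKM.

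Members are numbered here from 1 to 123 by their mean log2(FPKM + 0.5) over the 4 exposed libraries, and only a few are given by ID, since the IDs carry no gene name here. Number 1, ENSMUST00000200289, had 49.6 and 40.0 FPKM after triptonide, 73.8 and 122.0 FPKM after triptolide, and 0.0902 and 0.0895 FPKM in control. Number 2, ENSMUST00000218604, had 27.2 and 35.6 FPKM after triptonide, 81.7 and 82.6 FPKM after triptolide, and 0.0364 and 0.0653 FPKM in control. For both, each triptonide library lay below each triptolide library and far above each control library. Number 3 had 12.3 and 20.02 FPKM after triptonide, 32.7 and 24.95 FPKM after triptolide, and 0.0804 and 0 in control. Number 4 had 13.9 and 15.6 FPKM after triptonide, 26.9 and 26.6 FPKM after triptolide, and 0.0304 and 0.0779 FPKM in control. Number 5 had 13.6 and 13.6 FPKM after triptonide, 26.1 and 20.2 FPKM after triptolide, and 0.0190 and 0 in control. In these 3 as well, the triptonide libraries were the lower pair of the exposed ones.

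Among the 15 highest members, 2 went the other way. Number 6 had 25.2 and 24.5 FPKM after triptonide, 18.1 and 8.41 FPKM after triptolide, and 0.0916 and 0.0482 FPKM in control. Number 8 had 15.8 and 23.2 FPKM after triptonide, 13.8 and 11.9 FPKM after triptolide, and 0 in both control libraries. For both, each triptonide library lay above each triptolide library, but the libraries of one group spread widely and neither difference passed the test described below (limma adjusted p = 0.143 for number 6 and 0.148 for number 8).

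The remaining 8 of the 15 were again lower after triptonide in every library. Number 7 had 13.0 and 12.9 FPKM after triptonide, 26.2 and 19.5 FPKM after triptolide, and 0 and 0.0873 FPKM in control. Number 9 had 9.80 and 11.3 FPKM after triptonide, 21.0 and 21.9 FPKM after triptolide, and 0 and 0.0415 FPKM in control. Number 10 had 8.41 and 12.0 FPKM after triptonide, 17.99 and 18.2 FPKM after triptolide, and 0 in both control libraries. The 2 triptolide libraries were closer to each other for numbers 9 and 10 than for number 7. Number 11 had 6.35 and 7.12 FPKM after triptonide, 20.2 and 19.2 FPKM after triptolide, and 0.0114 and 0.0166 FPKM in control. Number 12, ENSMUST00000204003, had 6.10 and 6.59 FPKM after triptonide, 19.8 and 19.2 FPKM after triptolide, and 0.0423 and 0.0390 FPKM in control. These 2 showed the widest gap between the compounds among the 15. Number 13 had 6.91 and 8.19 FPKM after triptonide, 16.8 and 15.5 FPKM after triptolide, and 0.0409 and 0.0306 FPKM in control. Number 14 had 5.08 and 8.49 FPKM after triptonide, 17.3 and 16.1 FPKM after triptolide, and 0 in both control libraries. Number 15 had 6.37 and 7.19 FPKM after triptonide, 14.999 and 14.2 FPKM after triptolide, and 0.0698 and 0.0779 FPKM in control. Numbers 1 and 2 stood above all other members in each of the 4 exposed libraries, and changed places in triptolide replicate 1.

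**Figure D2:**
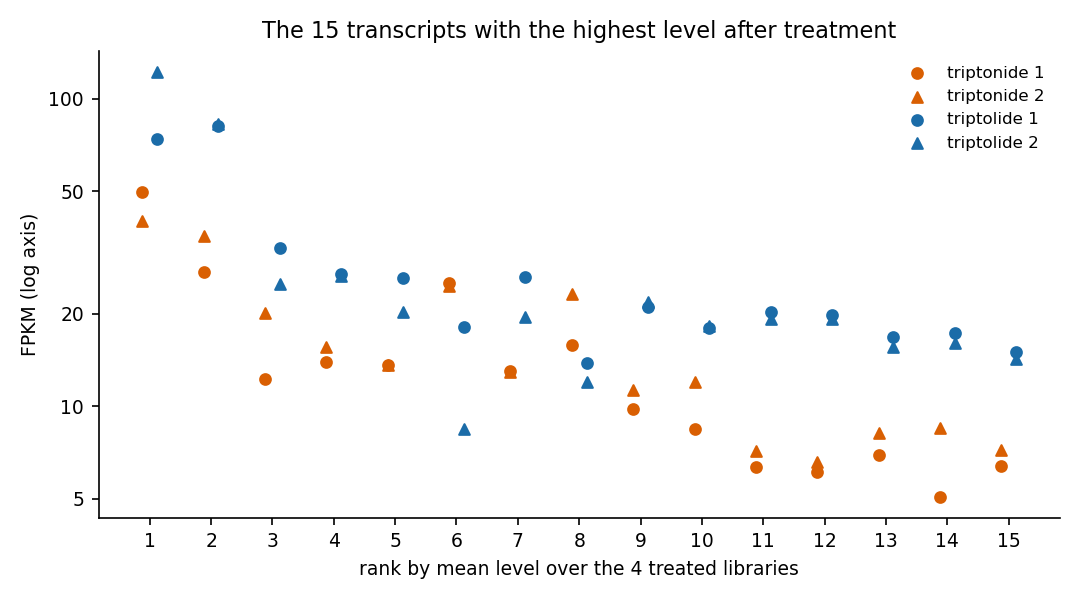
FPKM (log axis) of the 15 highest members in the 4 exposed libraries, by rank of mean level; colour gives the compound and shape the replicate. Triptonide values lie below triptolide values for 13 of the 15, and above them at ranks 6 and 8.

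With no dose or time for triptonide, structure and exposure cannot be told apart in a comparison of the 2 compounds. Most of the switched-on transcripts had lower values in triptonide than in triptolide libraries. Both triptonide libraries lay below both triptolide libraries for 91 of 123 members, against 16.3% of all 23407 transcripts tested, and above them for 9 members, against 44.9%. The groups overlapped for 23. The median difference of the members, triptonide minus triptolide, was -0.67 on the log2(FPKM + 0.5) scale, with quartiles of -0.99 and -0.24, whereas over all transcripts tested the median was 0.24, with quartiles of -0.12 and 0.57. Over the 10755 other transcripts that also had at least 1 FPKM in all 4 exposed libraries the median was 0.24 too. The ratio of mean FPKM, triptolide over triptonide, had a median of 1.70 and was at least 2 for 38 members, while the inverse ratio was at least 2 for 3 members.

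The difference was tested with limma on log2(FPKM + 0.5) in 1 fit over all 6 libraries, with p-values adjusted by the Benjamini-Hochberg method over the 23407 transcripts that had at least 0.5 FPKM in at least 2 libraries. All 123 members pass that filter by the way they were chosen. At an adjusted p under 0.05, 40 members were lower and 3 higher after triptonide, or 32.5% and 2.44%, against 3.62% and 12.1% of all transcripts tested. The choice held both control values of each member at 0.1 FPKM or less, so the control pair adds little spread to the fit of the members, and their p-values may be too small. With only the triptonide and triptolide libraries in the fit, 17 members were lower and 2 higher, against 1.65% and 6.13% of all transcripts tested. The excess of higher over lower calls among all transcripts varied with the scaling, and only median-of-ratios scaling reversed it. With libraries scaled by their sum without the top 100 transcripts, 47 members were lower and 2 higher, against 1116 and 2047 of all 23407. Under median-of-ratios scaling 63 members were lower and 2 higher, against 6.65% and 4.75% of all, and under quantile normalization 58 were lower and 2 higher, against 4.91% and 5.57%. The 40 lower members differed by -0.70 to -1.83, with a median of -1.05. Of the 80 members that did not pass, 36 had a 95% confidence interval below 0 throughout. These intervals are not adjusted for the number of transcripts tested. They come from the fit of all 6 libraries, so they may be too narrow for the members. The interval lay within 1 unit of 0 on the log2(FPKM + 0.5) scale for 31 of the 80 and reached further for 49. On that scale 1 unit is more than 2-fold in FPKM. A 2-fold difference in FPKM was thus not resolved for these 49, and may not be for some of the 31. The number of members called depended on each single library. It was 43 with all libraries, against 15.7% of all transcripts tested, and fell with any 1 of the 6 left out. The number called among all transcripts tested fell as well. In proportion the members lost more calls than all transcripts tested in each of these settings except without triptonide replicate 2. Without triptonide replicate 1 or triptolide replicate 2, the share of members called no longer exceeded that of all transcripts tested. Both counts fell furthest without triptonide replicate 1. The median difference was -0.78 to -0.55 over these 6 settings, and 102 to 105 members lay below 0, against 103 with all libraries.

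**Figure D3:**
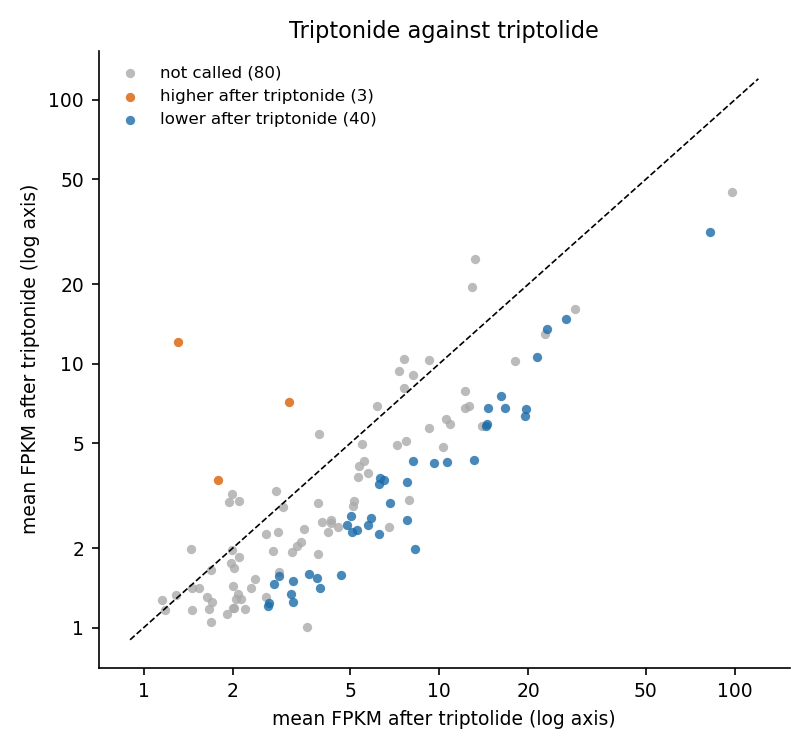
Mean FPKM of each of the 123 members after triptonide (vertical, log axis) and after triptolide (horizontal, log axis; 2 libraries each), with the dashed line of equal level. The 40 members called lower after triptonide lie below the line and the 3 called higher lie above it; 80 were not called.

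On the log2(FPKM + 0.5) scale, the largest deficits after triptonide were seen in ENSMUST00000017309 and ENSMUST00000204003. ENSMUST00000017309, number 52 by level, had 2.11 and 1.85 FPKM after triptonide, 8.02 and 8.54 FPKM after triptolide, and 0 in both control libraries. Its mean was 1.98 ± 0.18 FPKM after triptonide and 8.28 ± 0.36 FPKM after triptolide (SD, n = 2 each). The log2 difference was -1.83 ± 0.15 (SE; limma adjusted p = 0.00734), and the adjusted p without triptonide replicate 1 was 0.0523, over a range of 0.00562 to 0.0523 for all settings tried. ENSMUST00000204003 averaged 6.35 ± 0.34 FPKM after triptonide and 19.5 ± 0.39 FPKM after triptolide (SD, n = 2 each), a log2 difference of -1.55 ± 0.11 (SE; limma adjusted p = 0.00658). Its adjusted p without triptonide replicate 1 was 0.0519, with 0.00522 to 0.0519 over all settings. The next largest deficits were those of numbers 29, 49 and 11. Number 29 had 3.57 and 5.07 FPKM after triptonide, 14.1 and 12.1 FPKM after triptolide, and 0 and 0.0134 FPKM in control. Number 49 had 1.79 and 3.32 FPKM after triptonide, 7.34 and 8.23 FPKM after triptolide, and 0.0602 and 0.0507 FPKM in control. All 3 were called, with log2 differences of -1.51 for number 29, -1.48 for number 49 and -1.48 for number 11 (limma adjusted p = 0.0150, 0.0331 and 0.00731). By the ratio of mean FPKM, triptolide over triptonide, the order differed, with 4.18 for ENSMUST00000017309, 3.53 for number 95 and 3.07 for ENSMUST00000204003. Number 95 lay near the floor, with 1.01 and 1.01 FPKM after triptonide, 2.35 and 4.79 FPKM after triptolide and 0 in both control libraries, and did not pass (limma adjusted p = 0.0582).

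In the opposite direction, ENSMUST00000047697 stood alone in size. It had 12.9 and 11.2 FPKM after triptonide, 1.01 and 1.61 FPKM after triptolide, and 0.0850 and 0 FPKM in control. Triptonide thus gave the higher pair by far, and triptolide replicate 1 met the floor of the choice by a narrow margin. The log2 difference was 2.81 ± 0.23 (SE; 95% interval 2.21 to 3.41; limma adjusted p = 0.00742). Without triptonide replicate 1 the adjusted p was 0.0565, and it was 0.00565 to 0.0565 over all settings. ENSMUST00000107869, number 44, had 6.61 and 7.70 FPKM after triptonide, 2.95 and 3.26 FPKM after triptolide, and 0 in both control libraries. Its log2 difference was 1.08 ± 0.15 (SE; limma adjusted p = 0.0166), and the call was lost without any 1 of the 4 exposed libraries (adjusted p = 0.0619 to 0.0798, within 0.0137 to 0.0798 over all settings). The third member called higher, number 77, had 3.79 and 3.44 FPKM after triptonide, 1.53 and 2.04 FPKM after triptolide, and 0.00549 and 0.00566 FPKM in control (log2 difference 0.86 ± 0.18, SE; limma adjusted p = 0.0447). Its call was lost with only the triptonide and triptolide libraries in the fit, and under each of the 3 other scalings. Number 6, given above, lay between numbers 44 and 77 in size, and number 81 came after number 77, with 3.41 and 3.02 FPKM after triptonide, 1.11 and 2.88 FPKM after triptolide and 0 in both control libraries. Neither number 6 nor number 81 passed the test. Of the pair named for their level, ENSMUST00000218604 was the lower one in triptonide libraries, with a log2 difference of -1.39 ± 0.14 (SE; limma adjusted p = 0.00970), a call lost without triptonide replicate 1, triptolide replicate 1 or triptolide replicate 2 (adjusted p = 0.0507, 0.0556 and 0.0505). ENSMUST00000200289 did not pass, with a difference of -1.08 (95% interval -1.78 to -0.39; limma adjusted p = 0.0595, or 0.0370 to 0.199 over the other settings). It did pass under median-of-ratios scaling (limma adjusted p = 0.0370), when libraries were scaled by their sum without the top 100 transcripts (0.0475), and without triptolide replicate 1 (0.0445).

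Libraries of a group were alike for most members. The fold between the 2 libraries of a group had a median of 1.25 for triptonide and 1.14 for triptolide, and exceeded 2 for 7 and 9 members. Triptonide replicate 2 was the higher of its pair for 95 members, or 77.2%, against 47.8% of all transcripts tested. Its part in the result above was not tested beyond leaving it out. The 3 members with the widest replicate gap were numbers 53, 35 and 68. Number 53 had 9.12 and 1.68 FPKM after triptonide, against 3.61 and 4.23 FPKM after triptolide. Number 35 had 6.68 and 7.10 FPKM after triptonide, against 9.35 and 2.92 FPKM after triptolide. Number 68 had 1.49 and 4.46 FPKM after triptonide, against 5.42 and 2.34 FPKM after triptolide. All 3 had a listed 0 in each control library, and for each of the 3 the values of the compounds overlapped.

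Many members stood side by side in the table. For 37 of the 123, or 30.1%, the row directly above or below was another member, against 0.455% of the other transcripts tested that had a member in the next row. Within 5 rows these shares were 46.3% and 1.64%, and within 20 rows 54.5% and 4.91%. The file gives no coordinates. The locus numbers of the unannotated transcripts did not descend in 343 of the 345 steps down the table, so the rows follow the order of these loci. Neighbouring rows may be transcripts of one gene or of adjacent genes, and FPKM values of overlapping or near-identical transcripts share fragments that the quantification divides. The members are therefore not independent of each other, and a single value within a group of neighbours is uncertain.

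Members no more than 20 rows apart were joined, a distance chosen after the rows were seen. This gave 56 single members, 8 groups of 2 to 4 with 18 members, and 5 clusters of at least 5 with 49 members, or 39.8% of all. The clusters are called A to E by size. Cluster A has 13 members in 19 consecutive rows. Cluster B has 12 members in 37 rows, cluster C 10 in 32 rows, cluster D 9 in 14 rows and cluster E 5 in 22 rows.

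All 5 clusters were lower after triptonide than after triptolide. In cluster A the median was 2.83 and 3.20 FPKM after triptonide, 4.99 and 4.59 FPKM after triptolide, and 0.0134 and 0.00867 FPKM in control. In cluster B it was 3.44 and 5.01 FPKM after triptonide, 9.96 and 9.80 FPKM after triptolide, and 0.00604 and 0.0137 FPKM in control. Cluster B thus had the widest gap between the compounds. In cluster C the median was 2.83 and 3.39 FPKM after triptonide, 5.66 and 5.12 FPKM after triptolide, and 0.00397 and 0 in control. In cluster D it was 4.88 and 7.50 FPKM after triptonide, 10.4 and 10.2 FPKM after triptolide, and 0 in both control libraries. In cluster E it was 2.83 and 3.08 FPKM after triptonide, 6.62 and 7.05 FPKM after triptolide, and 0 and 0.0538 FPKM in control. For each of the 49 clustered members both triptonide libraries lay below both triptolide libraries, against 42 of the 74 other members and the 16.3% of all transcripts tested.

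The log2 difference of single members was below 0 throughout. It ran from -0.86 to -0.24 in cluster A, from -1.51 to -0.99 in cluster B, from -0.96 to -0.22 in cluster C, from -1.28 to -0.49 in cluster D and from -1.09 to -0.53 in cluster E. The medians were -0.67, -1.24, -0.74, -0.79 and -1.02 in the same order. The test called 1 of 13 members of cluster A, 11 of 12 of cluster B, 5 of 10 of cluster C, 2 of 9 of cluster D and 4 of 5 of cluster E, each of them lower after triptonide. These 23 calls of limma were 7 with only the triptonide and triptolide libraries, against 1.65% of all transcripts tested called lower in that fit. With any 1 library left out fewer of the 49 were called. Nearly all of these calls were lost without triptonide replicate 1 or without either triptolide library. Fewer of all transcripts tested were called lower too, but without either triptolide library that loss was smaller in proportion. Over the clustered members the median was -0.82, and over the 74 others it was -0.38, with 17 called lower and 3 higher. All 49 clustered members lay below 0 under each of the other scalings tried and with each library left out. Scaling to the sum of the whole table was not tried. That sum was higher in each triptolide library than in each triptonide library. Such a scaling would therefore raise the triptonide values relative to the triptolide values. Triptonide replicate 2 was above triptonide replicate 1 for 44 of the 49.

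**Figure D4:**
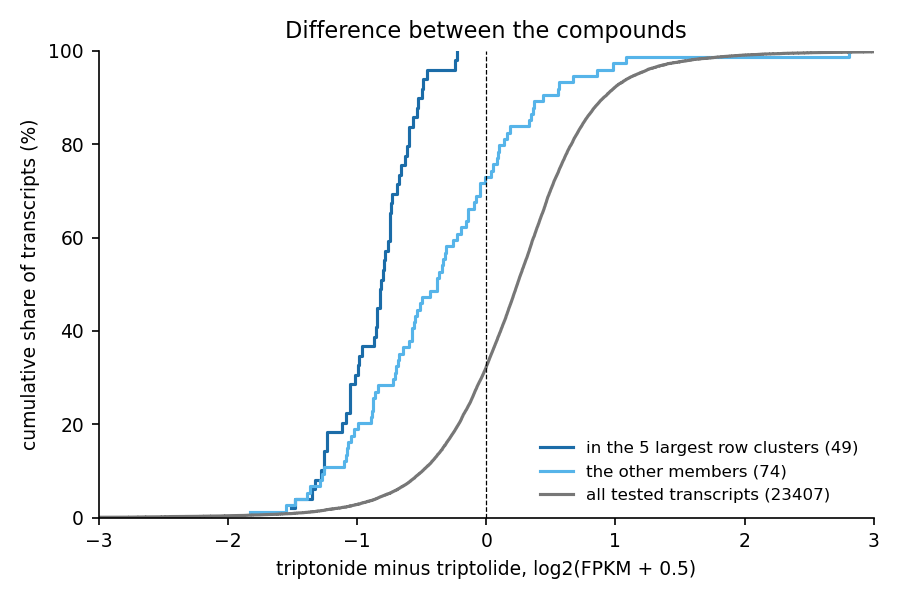
Cumulative share of transcripts (vertical, in percent) by the difference of triptonide minus triptolide on the log2(FPKM + 0.5) scale (horizontal) for the 49 members in the 5 largest row clusters, the 74 other members and all 23407 transcripts tested. The clustered members lie entirely below 0, with a median of -0.82, the others have a median of -0.38, and all transcripts tested a median of 0.24.

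The other rows inside the clusters held values that the choice of members did not use, apart from leaving these rows out. There were 75 such rows, of which 66 had at most 0.1 FPKM in both control libraries. Of the 37 that could be tested, 24 were called higher than control after triptonide and 35 after triptolide (limma adjusted p under 0.05). Over all transcripts tested the shares called higher were 6.27% and 12.4%, but that is not a like comparison. A row at or under 0.1 FPKM in both control libraries can be tested only if exposed libraries reach 0.5 FPKM. The filter thus favours calls higher than control among these rows. In 35 of the 37 the level was lower after triptonide than after triptolide, against 32.3% of all transcripts tested. These rows may share fragments with the members. Among the 75 rows were 12 unannotated assembled transcripts, 7 of which met the same limits as the members. In the 5 rows on either side of each cluster 17 other transcripts could be tested, of which 6 were higher after triptonide and 8 after triptolide. Since the clusters were drawn after the values were seen, these counts describe them and are no test.

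**Figure D5:**
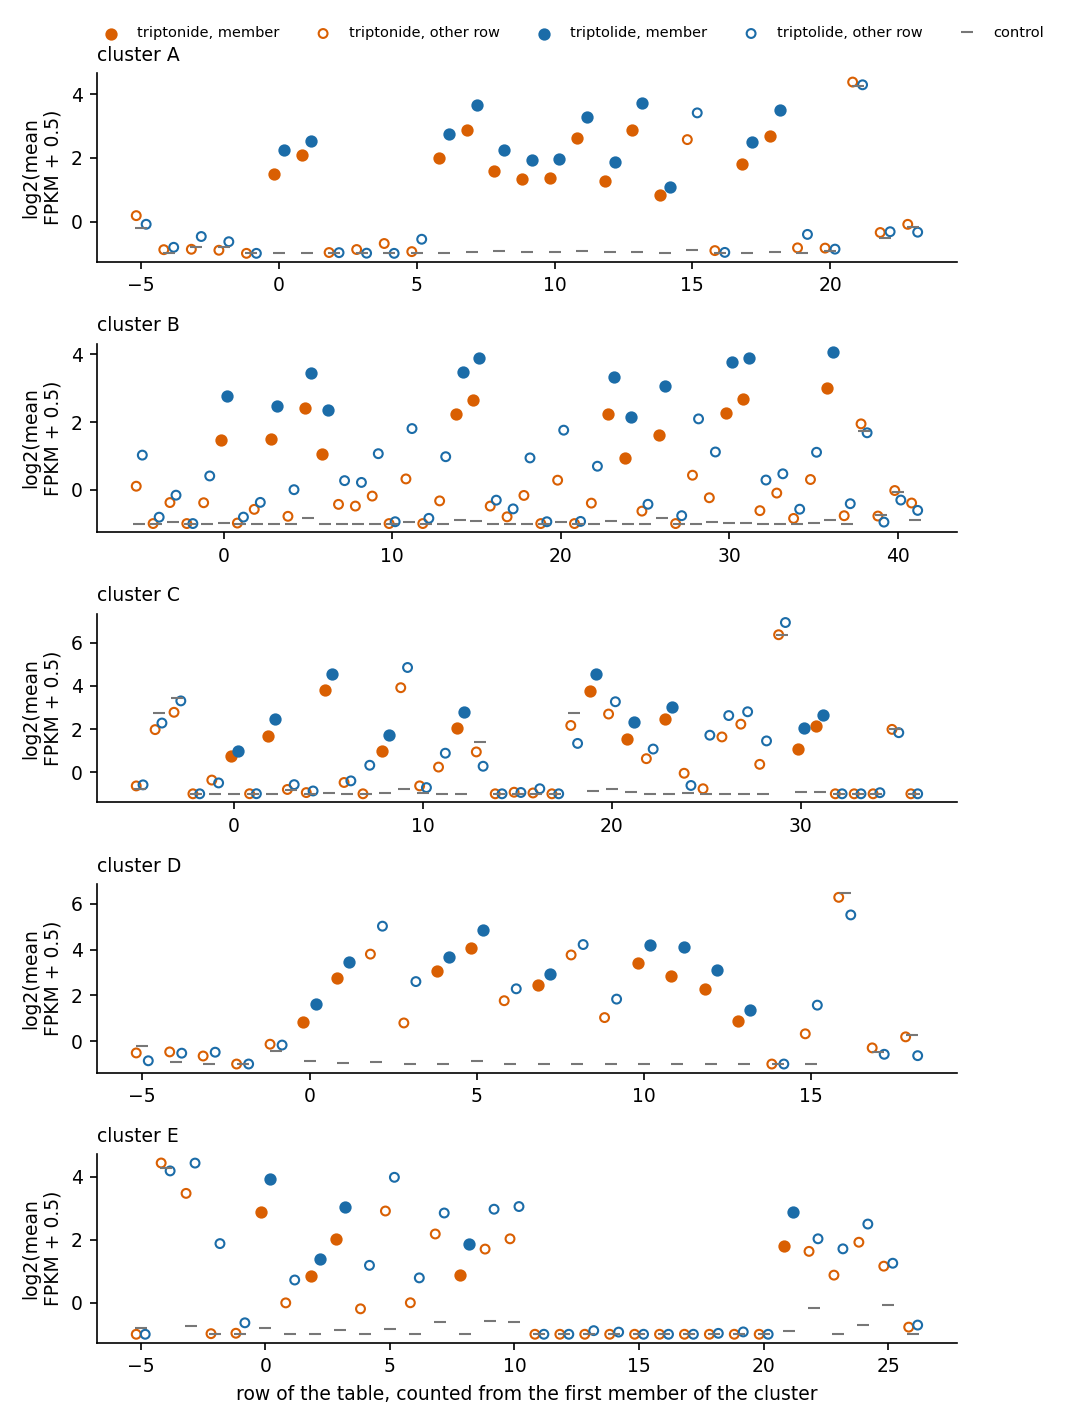
Level as log2 of mean FPKM + 0.5 (vertical) by row of the table counted from the first member (horizontal) in the 5 clusters and 5 rows on either side; filled points are members, open points other rows, and grey bars the control mean. Members lie lower after triptonide than after triptolide in each cluster, with control near the value for 0 FPKM.

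Cluster A held 3 members, numbers 19, 21 and 27, with the same control values of 0.0212 and 0.00867 FPKM. Number 19 had 5.24 and 8.58 FPKM after triptonide, against 11.3 and 14.0 FPKM after triptolide. Number 21 had 5.49 and 8.06 FPKM after triptonide, against 11.2 and 13.2 FPKM after triptolide. Number 27 had 4.63 and 7.22 FPKM after triptonide, against 9.72 and 12.0 FPKM after triptolide. Whether the 3 share fragments was not tested, and their values are uncertain as separate measurements.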

How the data were processed

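RNA of 6 libraries, 2 per group, was measured by the authors as FPKM per transcript, deposited as 1 table with replicates kept apart. STAR and StringTie are named without versions in the submitters' processing notes, as is the build hg19, a human assembly, although the IDs are mouse IDs. The build is thus unsettled and no coordinates or sequences are given. A table of 65535 rows may be part of a longer one.

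Values were taken to log2(FPKM + 0.5), and differences on that scale understate those of low transcripts. The test was limma (version 3.58.1, under R 4.3.3), fitted to all 6 libraries with an intensity trend (3 residual and 1.68 prior degrees of freedom). It was also run on simulated libraries, in which all groups of a transcript had a common spread. These lacked the low control pair of the members, so they cannot show whether the members' p-values are too small. Settings tried were 2 other pseudocounts, 2 filters, 3 scalings, other limits for the members, other fits and each library left out. Relative depth was taken from the ratios at which low values between libraries pile up.

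The members and lists were chosen with earlier results of these data known. By the rule for named transcripts, the 15 highest members, those that differ most between the compounds, those with the widest replicate gap and those nearest the limits are described. Gene lists and cell type markers need gene names and were not run.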

Additional observations from a re-analysis of the deposited data

Results flagged for a closer look

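Outside the annotated transcripts that the report compares, 34 unannotated assembled transcripts met the same limits, at most 0.1 FPKM in both control libraries and at least 1 FPKM in all 4 exposed libraries. They are 9.83% of the 346 unannotated transcripts, come from 23 loci, and 15 of them lie within 20 rows of a member.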

How the results depend on the processing

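The number of switched-on transcripts followed the limits: 123 as reported, 50 with an exact 0 in control, 258 with a floor of 0.5 FPKM, 63 with a floor of 2 FPKM, and 135 to 186 with 1 library left out, most without control replicate 2. The 3 other scalings gave 100 to 126. The number of members that differed between the compounds was 43 as reported, 26 with a pseudocount of 0.1 and 27 with no filter. It was 65 with median-of-ratios scaling and 19 with only the triptonide and triptolide libraries, and fell with 1 library left out. Over all 23407 transcripts tested, 848 were called lower and 2821 higher as reported, and 664 and 2870 with the pseudocount of 0.1. The counts were 1556 and 1112 with median-of-ratios scaling and 386 and 1434 with only the triptonide and triptolide libraries. With no filter they were 996 and 2148 of 50307. With 1 library left out, fewer of all transcripts were called too, though in most of these settings the loss was smaller in proportion than among the members. Of the members at an exact 0 in control 14 of 50 were called, with a floor of 2 FPKM 26 of 63 and with a floor of 0.5 FPKM 81 of 258. In settings chosen after seeing the data, 20 of the 74 members outside the 5 largest clusters were called. Of the highest members of each cluster or group, single members included, it was 21 of 69. Lower members outnumbered higher ones in each of these settings except without triptonide replicate 1, where none was called. The median difference of -0.67 was -0.93 with median-of-ratios scaling, -0.96 with quantile normalization, -0.42 for members at an exact 0 in control, -0.38 outside the clusters and -0.44 for the highest member of each. Scaling moved the median of all transcripts tested from 0.24 to 0.01 at the least, and relative to it the members lay at -0.91 as deposited and at -0.93 to -1.01 under the other scalings. With the replicate number as a block, 14 members were called, 12 lower and 2 higher, against 316 and 1323 of all 23407 transcripts tested. The libraries share only a number: deviations of same-numbered libraries correlated at 0.0144 for triptonide with triptolide, 0.00961 for triptonide with control and -0.0367 for triptolide with control. Where a count moved, the cause was not tested, but leaving out a library or adding the block also costs a residual degree of freedom.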

Other observations

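The mirror pattern, with both control libraries at 1 FPKM or more and all 4 exposed ones at 0.1 FPKM or less, was seen for 20 annotated transcripts, against the 123 switched on. None of the 20 had another of them within 20 rows of the table, and 67 of the 123 had another member that close. A set of 20 has far fewer chances of a near neighbour than a set of 123, so this is not a like comparison.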
